A study of Mus musculus with 8 samples.

Results

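Acta2, Actg2, Myh11, Myl9, Des, Cnn1 and Tagln encode the contractile and cytoskeletal proteins of smooth muscle and are used as markers of peritubular myoid cells. They were taken by gene name from the deposited expression table, in which they are 7 of 54532 genes. The rule itself used no measured value, but the genes were proposed with earlier results of these data known. Peritubular myoid cells are the flat contractile layer around each seminiferous tubule, and their contractions push fluid and sperm along the tubule. Force comes from phosphorylated myosin light chain and myosin heavy chain acting on filaments of smooth muscle actin, while calponin, transgelin and desmin regulate or anchor these filaments. Many of these genes carry a CArG box, the DNA motif read by serum response factor (SRF) and its cofactors of the myocardin family.

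The table covers 8 spermatocyte libraries of C57BL/6J mice, with 1 library for each combination of stage (P, pachytene, or L/Z, leptotene or zygotene), age (PD 24 or PD 52, postnatal days) and genotype. MFN2 WT mice were Mfn2 loxp/loxp and MFN2 cKO mice were Mfn2 loxp/loxp; Stra8-Cre, so both genotypes carried floxed Mfn2 alleles, and the study's methods also allow controls with 1 floxed allele. Stra8-Cre acts in male germ cells, and peritubular myoid cells lie outside the cells in which it is expressed. The cells came from tubules freed with collagenase, dispersed with trypsin and separated by sedimentation through a BSA gradient, with no sort on a marker, and the labels do not say whether P and L/Z libraries came from the same mice, from separate mice or from pooled mice. P-values over these 8 libraries therefore rest on the spread between libraries, which may be technical. With 1 library per combination, this spread is mixed with any interactions of stage, age and genotype.

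Each library held 14340665 to 20379950 reads on genes. Mfn2, the deleted gene, stood in MFN2 cKO at 41.8% to 80.5% of its FPKM (fragments per kilobase of gene, scaled by the authors to the depth of the library) in the matching MFN2 WT library. The summed marker lists did not separate the libraries as labelled. The 12 genes of leptotene and zygotene cells summed to an FPKM of 172 to 253 in L/Z and 229 to 307 in P. The 12 pachytene genes summed to 3726 to 6228 in L/Z and 4351 to 6187 in P. The 12 spermatid genes reached 537 to 21417 in L/Z against 147 to 5286 in P. Single genes, named after their values were seen, went both ways. Dmc1, Prdm9 and Gm960 were higher in L/Z in every pair of the same age and genotype, and Spo11 and Meiob were lower. The pachytene gene Piwil1 was at 168 to 278 in P and did not exceed 40.55 in L/Z. Pgk2 and Nme8, of the same list, were higher in L/Z in every pair. Genes of Sertoli cells (16 genes, 58.2 to 457 in L/Z, 570.5 to 1407 in P), Leydig cells (10 genes, 33.2 to 826 over all libraries) and macrophages (11 genes, 21.7 to 192) were present as well, and no gene of these lists was at 0 in all 8 libraries. The 7 contractile genes summed to an FPKM of 55.0 to 88.1 in P and 205 to 316 in L/Z. In such mixed samples, fewer cells of a type and less RNA per cell cannot be told apart.

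The promoters of Acta2 and Myl9 are printed because they are the contractile genes whose RefSeq promoter held a CArG box or a near match. RefSeq promoters on GRCm38.p6, from 250 bases before to 50 bases after the start, were matched for 4 of the 7 genes (Acta2, Myl9, Des and Cnn1), and Actg2, Myh11 and Tagln were not matched. A CArG box, which reads the same on both strands, was in 1 of the 4 promoters against 1.63% of all 32851 promoters of the same length. A box with up to 1 G or C among the 6 middle letters, a wider search made after the first, was in 2 of the 4 against 9.98% of all. The bases before the gene start are shown 5′ to 3′, with the matches in capitals: chr19:34255374-34255623 on the minus strand for Acta2, with near matches 84 and 34 bases before the RefSeq start, and chr2:156775214-156775419 on the plus strand for Myl9, with a full match 161 and a near match 99 bases before it.
Acta2: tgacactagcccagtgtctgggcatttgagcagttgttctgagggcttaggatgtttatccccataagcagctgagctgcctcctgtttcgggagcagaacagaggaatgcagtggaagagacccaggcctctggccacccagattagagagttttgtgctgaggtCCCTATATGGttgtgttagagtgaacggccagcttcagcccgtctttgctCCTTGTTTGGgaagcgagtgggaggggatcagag
Myl9: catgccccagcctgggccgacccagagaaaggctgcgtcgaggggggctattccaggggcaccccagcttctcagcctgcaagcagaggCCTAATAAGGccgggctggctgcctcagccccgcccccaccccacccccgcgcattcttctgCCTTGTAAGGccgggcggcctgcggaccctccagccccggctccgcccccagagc
Such a match is a description of the sequence, and the absence of one in Des and Cnn1 says only that these letters are not in that window.

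Acta2 (ENSMUSG00000035783, chr19:34241090-34255336, minus strand, GRCm38) encodes smooth muscle alpha-actin, the main actin of the contractile thin filament. In P, its FPKM was 23.2 (MFN2 WT) and 26.4 (MFN2 cKO) at PD 24 and 7.31 (MFN2 WT) and 3.25 (MFN2 cKO) at PD 52. In L/Z, it was 91.1 (MFN2 WT) and 135 (MFN2 cKO) at PD 24 and 41.1 (MFN2 WT) and 35.9 (MFN2 cKO) at PD 52. All 4 L/Z libraries were above all 4 P libraries, and within each stage both PD 24 libraries were above both PD 52 libraries. The spread was wide, with the highest library at 41.4 times the lowest. Ranked by level, the only neighbours whose 95% Poisson intervals overlapped were the P libraries at PD 24. These intervals, on whole reads recovered from the FPKM values, cover counting error only.

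Actg2 (ENSMUSG00000059430, chr6:83512905-83536265, minus strand) encodes smooth muscle gamma-actin, the actin of enteric and other visceral muscle, which earlier work has also described in post-meiotic male germ cells of mice. In P, its FPKM was 20.2 (MFN2 WT) and 5.39 (MFN2 cKO) at PD 24 and 49.3 (MFN2 WT) and 37.7 (MFN2 cKO) at PD 52. In L/Z, it was 45.8 (MFN2 WT) and 18.1 (MFN2 cKO) at PD 24 and 118 (MFN2 WT) and 162 (MFN2 cKO) at PD 52. Within each stage both PD 52 libraries were above both PD 24 libraries, the reverse of the order of Acta2. Actg2 supplied 11.8% of the summed FPKM of the 2 smooth muscle actin genes in L/Z MFN2 cKO at PD 24, its lowest share, and 92.1% in P MFN2 cKO at PD 52, its highest. At PD 24 this share was 11.8% to 46.6%, and at PD 52 it was 74.1% to 92.1%, so that Actg2 was the lower of the pair in all 4 libraries at PD 24 and the higher in all 4 at PD 52.

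**Figure D1:**
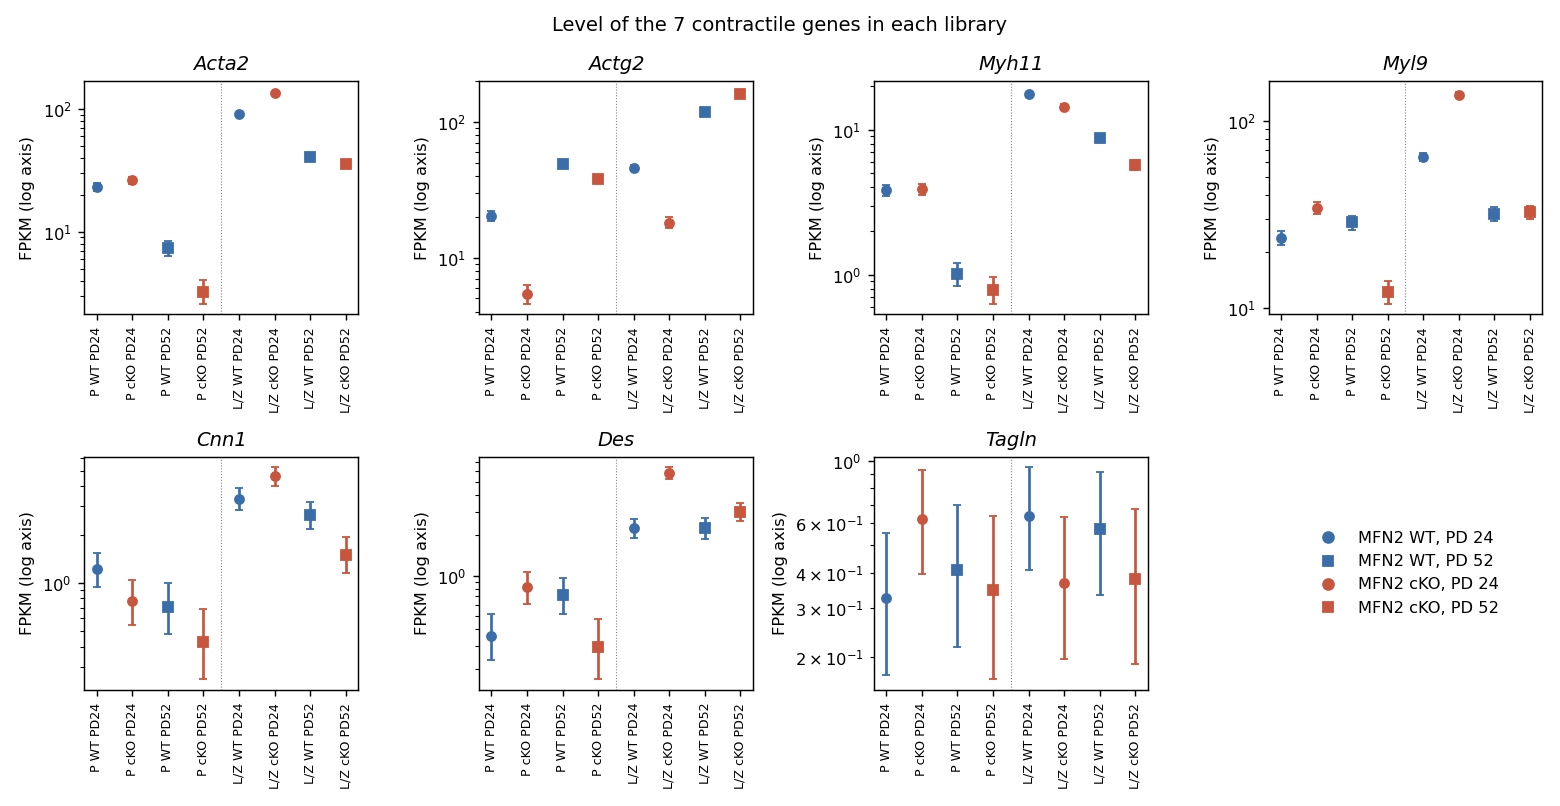
FPKM (log axis) of the 7 contractile genes in each of the 8 libraries, with circles for PD 24, squares for PD 52, blue for MFN2 WT, red for MFN2 cKO, and bars for 95% Poisson intervals (counting error only). Acta2 falls from 135 to 3.25 and its L/Z libraries all lie above its P libraries, Actg2 is highest at PD 52 (162), and the Tagln intervals overlap throughout.

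Myh11 (ENSMUSG00000018830, chr16:14194535-14291372, minus strand), the smooth muscle myosin heavy chain, followed the order of Acta2 in stage and age. In P, its FPKM was 3.82 (MFN2 WT) and 3.88 (MFN2 cKO) at PD 24 and 1.01 (MFN2 WT) and 0.789 (MFN2 cKO) at PD 52. In L/Z, it was 17.6 (MFN2 WT) and 14.4 (MFN2 cKO) at PD 24 and 8.71 (MFN2 WT) and 5.69 (MFN2 cKO) at PD 52. The stages did not overlap, and within each stage both PD 24 libraries were the higher. FPKM is a level per length of gene, so Acta2 can be set beside Myh11, and it stood at 4.12 to 9.34 times Myh11 in every library.

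Myl9 (ENSMUSG00000067818, chr2:156775420-156781658, plus strand) encodes a regulatory myosin light chain whose phosphorylation switches on contraction. In P, its FPKM was 23.6 (MFN2 WT) and 34.3 (MFN2 cKO) at PD 24 and 28.6 (MFN2 WT) and 12.2 (MFN2 cKO) at PD 52. In L/Z, it was 64.1 (MFN2 WT) and 138 (MFN2 cKO) at PD 24 and 31.9 (MFN2 WT) and 32.4 (MFN2 cKO) at PD 52. The 2 stages overlapped, since P MFN2 cKO at PD 24 was above both L/Z libraries at PD 52. Myl9 stood at 0.703 to 1.30 times Acta2 in 6 libraries and at 3.74 to 3.92 times Acta2 in the P libraries at PD 52. Those are the libraries in which Acta2 was lowest.

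Des (ENSMUSG00000026208, chr1:75360329-75368579, plus strand), the muscle intermediate filament protein, was low, at an FPKM of 0.294 to 0.816 in P and 2.26 to 5.83 in L/Z. Its highest value was in L/Z MFN2 cKO at PD 24, and the other L/Z libraries lay between 2.26 and 2.99. Cnn1 (ENSMUSG00000001349, chr9:22099216-22109630, plus strand), calponin, an actin-binding brake on myosin, lay at 0.428 to 1.21 in P and 1.5 to 4.62 in L/Z. For both genes the 4 L/Z libraries were above the 4 P libraries. They rested on 16 to 388 reads (Des) and 17 to 224 reads (Cnn1) per library, and 5 of the 7 neighbouring pairs in the order of Des, as in that of Cnn1, had overlapping intervals.

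Tagln (ENSMUSG00000032085, chr9:45929619-45936058, minus strand) encodes transgelin, an actin-bundling protein that is among the abundant proteins of smooth muscle. It was counted with 10 to 24 reads per library, an FPKM of 0.324 to 0.639, and all 7 neighbouring pairs in its order had overlapping intervals. Acta2 stood at 9.38 to 365 times Tagln. Of the exon bases of Tagln, 67.9% overlap exons on the opposite strand, 62.4% those of the antisense gene Gm48529 (FPKM 0.782 to 1.72) and 5.43% those of Pcsk7 (FPKM 3.62 to 9.78). The strand used in counting is not given in the sources used here, so that reads of Tagln and of these genes may not be told apart and its level is uncertain. The overlap was 5.86% for Des and 0 for the other 5 genes.

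The P and L/Z libraries were compared to ask how far the contractile genes differed between the 2 fractions. Of the 7 genes, 6 passed the filter of an FPKM above 1 in at least 1 library, all except Tagln. In the limma fit over 8 libraries, on log2(FPKM + 1) with genotype and age as terms, calls were made at an adjusted p under 0.05. Of these 6 genes, 5 were called higher in L/Z, against 13.6% of the 21175 genes tested, and the fitted difference was above 0 for all 6. On this scale the largest difference was that of Acta2, 2.42 (SE 0.27, limma adjusted p = 0.00378), followed by Myh11 with 1.95 (SE 0.16, limma adjusted p = 0.00182). By the ratio of mean FPKM, L/Z over P, Des stood first at 6.11, with Acta2 at 5.04 and Myh11 at 4.89. Actg2 differed by 1.51 (SE 0.34, limma adjusted p = 0.0201), Des by 1.43 (SE 0.24, adjusted p = 0.00943) and Cnn1 by 1.14 (SE 0.19, adjusted p = 0.00967). Myl9, at 1.22 (SE 0.37, limma adjusted p = 0.0501), missed the threshold of 0.05, and its difference was within counting error in MFN2 WT at PD 52 (0.15, 95% interval -0.02 to 0.32). The median difference was 1.47 over the 6 genes and 0.038 over all genes tested. The filter on low values can itself be passed through the L/Z libraries alone, as it was by Des, so that its place among the 5 calls is a description.

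The calls on Actg2 and Myl9 depended on single libraries and settings. Acta2, Myh11 and Cnn1 were called higher in L/Z in all 7 other settings and in all 8 fits that left out a library. Des was called in all of these as well. It passed the filter only through L/Z, so that its calls, except that with no filter, are a description. For Actg2 the adjusted p from limma was 0.0628 with no filter on FPKM, 0.0722 without P MFN2 cKO at PD 24, 0.0544 without P MFN2 cKO at PD 52 and 0.0793 without L/Z MFN2 WT at PD 24. For Myl9 it was 0.0499 with a further common scaling, 0.0371 with scaling on genes above an FPKM of 1, 0.0185 with limma voom on recovered reads, 0.0219 with genotype and age as a block, and 0.00769 without P MFN2 WT at PD 52. Tagln, tested only with no filter, differed by 0.06 (SE 0.10, limma adjusted p = 0.747).

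Taken pair by pair, the L/Z library was at least 2-fold higher on log2(FPKM + 1) for 5 of the genes in MFN2 WT at PD 24 (8.29% of all genes past the filter), for 6 in MFN2 cKO at PD 24 (11.8%), for 4 in MFN2 WT at PD 52 (10.3%) and for 5 in MFN2 cKO at PD 52 (15.3%). No gene of the 7 was at least 2-fold lower in any of these pairs. Acta2, Actg2 and Myl9 were above an FPKM of 1 in both libraries of each pair, whereas Des in all 4 pairs, Cnn1 in all but MFN2 WT at PD 24 and Myh11 in MFN2 cKO at PD 52 passed the filter only through the L/Z library, where they had to be higher, so that these counts are a description. The ratio of FPKM values for Acta2 ran from 3.93 (95% Clopper-Pearson interval 3.64 to 4.25) in MFN2 WT at PD 24 to 11.1 (8.83 to 14.0) in MFN2 cKO at PD 52. For Actg2 it ran from 2.26 (2.05 to 2.49) to 4.29 (3.98 to 4.62) in the same pairs. Des showed a ratio of 10.2 in MFN2 cKO at PD 52, with an interval of 6.08 to 18.2 that reflects its 16 reads in P.

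The genes around the contractile apparatus gave a mixed picture by stage. By limma calls at an adjusted p under 0.05, 2876 of all 21175 genes tested were higher in L/Z and 2458 lower. Of 28 other contractile genes, 23 were tested, of which 12 were higher in L/Z and 2 lower. Csrp1, a LIM protein of smooth muscle, was higher by 1.77 (limma adjusted p = 0.00406), Myl6 and Vim, at -0.05 and -0.23, did not pass, and the 2 lower genes were the small heat shock proteins Hspb1, at -1.34 (limma adjusted p = 0.0103), and Hspb6, named after its value was seen, at -0.86 (adjusted p = 0.0110). Of 22 matrix genes of the tubule wall, 15 were higher and 2 lower, with Dcn (decorin) higher by 3.15, Mfap4 by 2.61 and Col3a1 by 2.25 (limma adjusted p = 0.00353, 0.00182 and 0.00508). Sparc, the matrix gene of highest mean FPKM, differed by -0.47 (limma adjusted p = 0.444), with an FPKM of 66.5 to 140 in P and 15.8 to 197 in L/Z, and was lower in L/Z in both pairs at PD 52. The 2 lower matrix genes, Thbs1 and Timp3, were named after their values were seen. Of the signals and receptors of this layer, 20 of 24 were tested, 9 were higher and 2 lower. Pdgfra, a receptor of the peritubular lineage, was higher by 1.47 (limma adjusted p = 0.00711), Pdgfa, at -0.18 (0.487), did not pass, and Edn1, the ligand endothelin-1 that makes myoid cells contract, was lower, at -1.59 (limma adjusted p = 0.00511), as was Dhh, the Sertoli cell ligand, chosen after its value was seen.

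Of 12 paralogs of the contractile genes 8 were tested, of which 3 were higher in L/Z and 0 lower, with a median difference of 0.24 against 0.038 over all genes. Actb stood at an FPKM of 147 to 258 and Actg1 at 237 to 337, with differences of 0.36 (limma adjusted p = 0.141) and -0.23 (0.242), while Acta1 and Actc1, the striated muscle actins, reached at most 0.226 and 0.0613. Cnn2, Tagln2 and Myh9 were higher in L/Z by 1.45, 0.92 and 0.53 (limma adjusted p = 0.00582, 0.0120 and 0.0481). Cnn3, Myh10 and Myl12a, at 0.12, 0.05 and -0.12, did not pass the test, and Myl12b and Tagln3 were below the filter. The 2 smooth muscle actin genes made up 5.88% to 11.5% of the summed FPKM of Acta2, Actg2, Actb and Actg1 in P and 21.8% to 27.7% in L/Z, 2 ranges that did not overlap.

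Of the regulators of the contractile genes, most were expressed in all libraries, with Myocd, Foxf2 and Hand2 near 0. Srf lay at an FPKM of 24.4 to 37.1, Mkl1 (myocardin-related transcription factor A) at 9.63 to 18 and Klf4, a zinc finger factor that represses smooth muscle genes, at 30.5 to 144. Myocd, the myocardin gene, did not exceed 0.246, Foxf2 0.379 and Hand2 0.176. Of 10 regulators 7 were tested and 3 were higher in L/Z, namely Klf4 by 1.24 (limma adjusted p = 0.00649), Foxf1 by 0.58 (0.0330) and Srf by 0.45 (0.0472). Mkl1, Mkl2, Elk1 and Tead1 differed by 0.19, 0.04, 0.0075 and -0.19 and did not pass the test.

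Markers of other cells moved with the stage difference as well. Of 16 Sertoli genes, 15 were tested and 15 were lower in L/Z, against 2458 lower and 2876 higher of all 21175 genes tested. Higher were 7 of 10 tested macrophage genes and 7 of 12 spermatid genes. Lower were 2 of 10 Leydig genes, near the share of all genes, and 0 of 6 tested endothelial genes passed. For pericytes and vascular smooth muscle, which share the 7 genes with myoid cells, 5 of 9 markers were tested and Mcam alone was higher (0.94, limma adjusted p = 0.0231), with their summed FPKM at 36.1 to 49.7 in P and 51.6 to 66.5 in L/Z. Of the pericyte markers, Ndufa4l2 supplied an FPKM of 23.0 to 52.3 of these sums and Rgs5 did not exceed 1.61. The part of these cells in the stage difference was not tested.

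**Figure D2:**
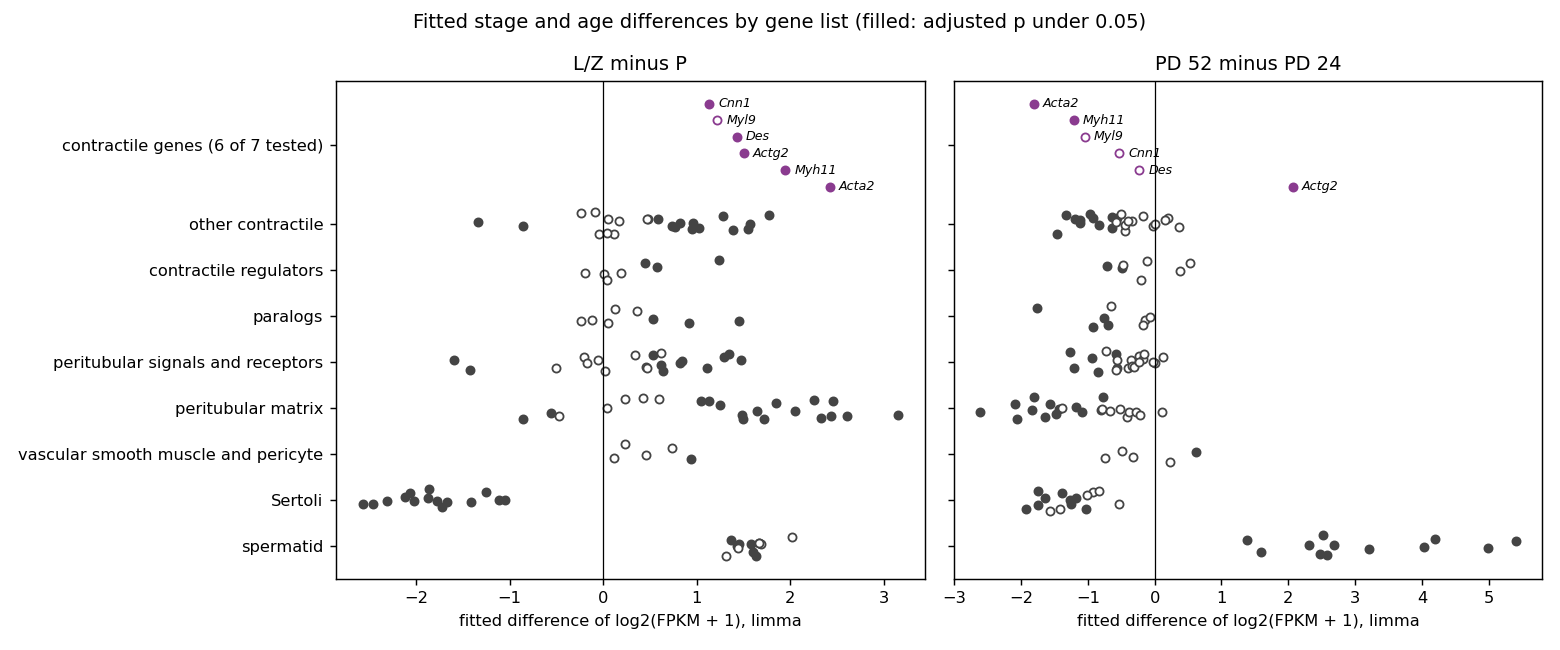
Fitted differences of log2(FPKM + 1) from limma for genes of 9 lists, L/Z minus P on the left and PD 52 minus PD 24 on the right, with 1 point per gene tested, filled where the adjusted p was under 0.05. The contractile genes lie on the right of 0 by stage, from 1.14 to 2.42, as do 19 of the 22 matrix genes, and Actg2 (2.07) lies apart from the other contractile genes by age, among the spermatid genes.

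Age was compared to ask whether the contractile genes differed between the first wave of spermatogenesis and the adult testis. Acta2 and Myh11 fell with age and Actg2 rose, so that 3 of the 6 tested genes differed between PD 52 and PD 24, against 20.5% of all genes tested. The fitted difference was -1.81 for Acta2 (SE 0.27, limma adjusted p = 0.00947), -1.21 for Myh11 (SE 0.16, limma adjusted p = 0.00924) and 2.07 for Actg2 (SE 0.34, limma adjusted p = 0.0104). These 3 calls held in each of the 7 other settings and with each library left out. The share of all genes was 8.94% with no filter on FPKM and 6.13% to 13.0% without any 1 of 6 libraries, all but the P MFN2 WT pair. Myl9, at -1.05 (SE 0.37, limma adjusted p = 0.0826), Cnn1, at -0.53 (SE 0.19, adjusted p = 0.0859), and Des, at -0.23 (SE 0.24, adjusted p = 0.487), did not pass. For Myl9 the adjusted p was 0.0366 with limma voom and 0.0146 without P MFN2 WT at PD 52. The median was -0.79 over the 6 genes and 0.0048 over all genes tested.

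Within pairs, differences of at least 2-fold between the ages were counted on log2(FPKM + 1). They were seen for 3 genes in P MFN2 WT (14.6% of all genes past the filter) and 2 in L/Z MFN2 WT (13.3%). In MFN2 cKO they were seen for 4 genes in P (18.9%) and 5 in L/Z (31.5%). Acta2 was lower and Actg2 higher in all 4 pairs, Myh11 was lower in 3 of them, Myl9 in both MFN2 cKO pairs and Cnn1 in L/Z MFN2 cKO. In P MFN2 cKO, Myh11 passed the filter only through PD 24 (3.88, against 0.789 at PD 52), where it had to be higher, so that this count is a description. In L/Z MFN2 WT, Myh11 and Myl9 at PD 52 stood at 0.495 and 0.497 times their PD 24 FPKM, but under 2-fold on the log2(FPKM + 1) scale. At PD 52 the FPKM of Actg2 was 2.44 times (95% Clopper-Pearson interval 2.21 to 2.68) that at PD 24 in P MFN2 WT and 2.57 times (2.41 to 2.75) in L/Z MFN2 WT. In MFN2 cKO it was 7.01 times (5.90 to 8.37) in P and 8.94 times (8.14 to 9.84) in L/Z. Acta2 at PD 52 was 0.315 (0.270 to 0.368) and 0.451 (0.420 to 0.483) of its PD 24 level in MFN2 WT P and L/Z, and 0.123 (0.0973 to 0.154) and 0.267 (0.248 to 0.286) of it in MFN2 cKO. Within each stage the ratio of both genes lay farther from 1 in MFN2 cKO than in MFN2 WT, and the intervals of the 2 genotypes did not overlap. These intervals cover only counting error on 1 library per group. The limma test of genotype by age called neither gene. Over its 6 other settings the limma adjusted p for Acta2 was 0.443 to 0.705.

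**Figure D3:**
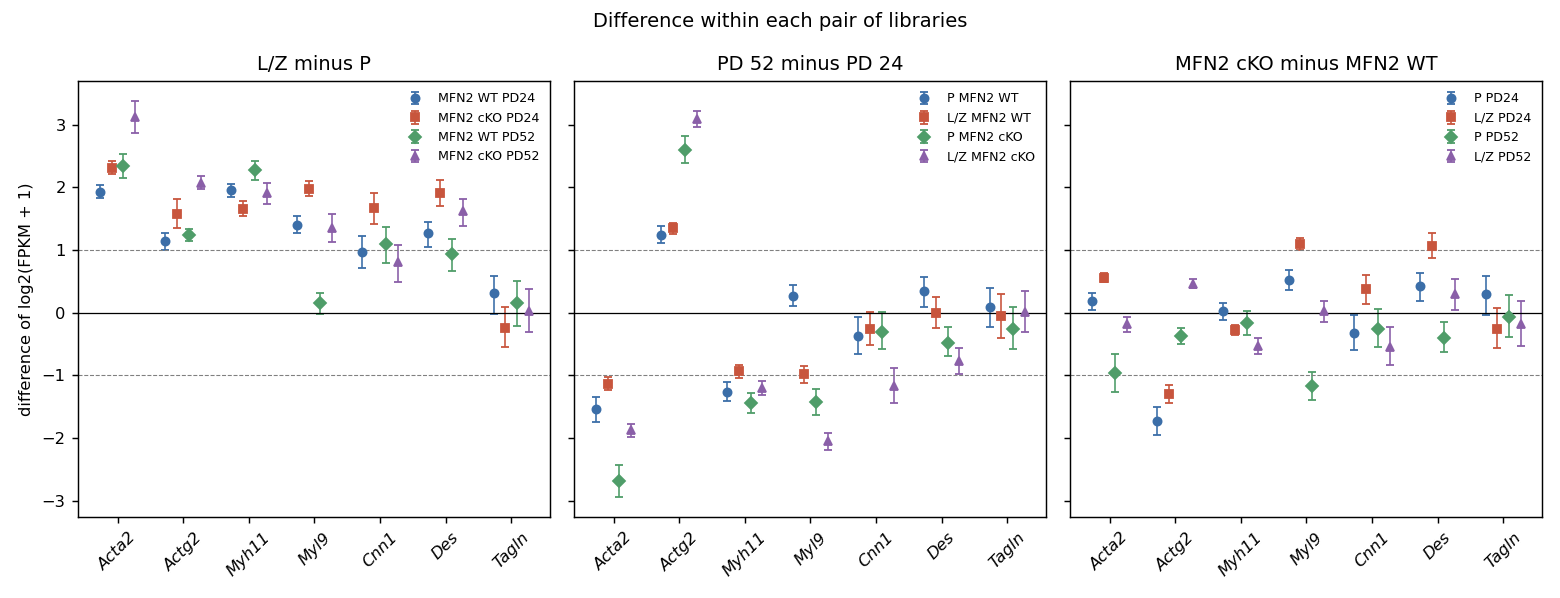
Difference of log2(FPKM + 1) within each pair of libraries for the 7 genes, by stage, age and genotype, with bars for 95% Clopper-Pearson intervals on the reads (counting error only) and dashed lines at 2-fold. Actg2 is above the upper dashed line in all 4 age pairs (1.24 to 3.09) where Acta2 is below the lower one (-2.69 to -1.13), and in the genotype panel 5 differences lie beyond a line.

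The other contractile genes and the matrix genes went down with age where they changed. By limma calls at an adjusted p under 0.05, 1493 of all 21175 genes tested were lower at PD 52 and 2855 higher. Of 23 other contractile genes tested, 11 were lower at PD 52 and 0 higher, among them Vim (vimentin, -1.33, limma adjusted p = 0.0466), Hspb1 (-1.19, 0.0147) and Csrp1 (-1.11, 0.0121), while Myl6, at -0.50 (0.231), did not pass. Of 22 matrix genes, 13 were lower and 0 higher, with Mfap4 at -2.09 and Col3a1 at -2.06 (limma adjusted p = 0.00761 and 0.00924), while Sparc, at -1.38 (0.0607), and Dcn, at -0.79 (0.129), did not pass. Of the signals and receptors 6 were lower and 0 higher, and of the paralogs 4 were lower (Cnn3, Cnn2, Tagln2 and Myh9, from -1.76 to -0.70) and 0 higher. Actb and Actg1 differed by -0.14 and -0.17 and did not pass. Among the regulators Foxf1 and Tead1 were lower, at -0.71 and -0.49 (limma adjusted p = 0.0203 and 0.0415). Beside this, 9 of 15 Sertoli genes were lower at PD 52, and 12 of 12 spermatid genes were higher, with a median difference of 2.63. The part of these cells in the age difference was not tested.

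The genotypes were compared to ask whether the contractile genes differed after deletion of Mfn2 in germ cells. Over the 8 libraries 0 of the 6 tested genes differed between MFN2 cKO and MFN2 WT by limma, 0 had an unadjusted p under 0.05, and 0 were called by limma voom. Of all genes 0.0142% (3 genes) were called, and 1448 had an unadjusted p under 0.05. The fitted differences were -0.74 for Actg2 (SE 0.34, limma adjusted p = 0.740), 0.34 for Des (SE 0.24, 0.861), -0.24 for Myh11 (SE 0.16, 0.846), -0.19 for Cnn1 (SE 0.19, 0.906), 0.12 for Myl9 (SE 0.37, 0.980) and -0.10 for Acta2 (SE 0.27, 0.978). The median was -0.15 over the 6 genes and -0.039 over all genes tested. The values of the genotypes overlapped for all 7 genes.

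Single pairs differed more, and not in 1 direction. In P at PD 24, 1 gene differed at least 2-fold (8.08% of all genes past the filter), and it was Actg2, at 0.266 times the MFN2 WT level (95% Clopper-Pearson interval 0.222 to 0.317). In L/Z at PD 24, 3 genes did (10.5%), with Actg2 at 0.396 times (0.356 to 0.439), Myl9 at 2.15 times (2.02 to 2.30) and Des at 2.58 times (2.14 to 3.13). In P at PD 52, 1 gene did (11.0%), Myl9 at 0.424 times (0.359 to 0.499), while Acta2, at 0.444 times (0.341 to 0.575), stayed just under 2-fold on the log2(FPKM + 1) scale. In L/Z at PD 52, 0 genes did (7.95%). Acta2 and Myl9 stood higher in MFN2 cKO at PD 24 and lower or level with MFN2 WT at PD 52. Each pair holds 1 library per genotype, so these differences have no replicate check. Markers of other cells differed in the same pairs. Of 12 spermatid genes, 12 were at least 2-fold lower in MFN2 cKO in P at PD 24, 9 in L/Z at PD 24 and 4 in P at PD 52, and 3 were at least 2-fold higher in L/Z at PD 52. Of 10 Leydig genes, 7 were at least 2-fold higher in MFN2 cKO in both pairs at PD 24 and 8 in both at PD 52, as were 3, 5, 3 and 9 of 11 macrophage genes in P and L/Z at PD 24 and P and L/Z at PD 52. Of 22 matrix genes, 2 in P and 4 in L/Z at PD 24 were at least 2-fold higher in MFN2 cKO, and 2 in P and 9 in L/Z at PD 52. Lower by as much were 1 in P and 1 in L/Z at PD 52. Over the 8 libraries 12 of these 22 had an unadjusted limma p under 0.05, as did 7 of 20 signals and receptors tested, and 0 were called. Of 16 Sertoli genes, 6 were at least 2-fold lower in P at PD 52 and 7 higher in L/Z at PD 52. The part of these cells in the differences of Actg2, Myl9 and Des was not tested.

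The genotype difference of Actg2 changed its sign with age in L/Z only. Its FPKM in MFN2 cKO was below that in MFN2 WT in both pairs at PD 24 and in P at PD 52 (0.765 times, 0.700 to 0.836), and above it in L/Z at PD 52 (1.38 times, 1.31 to 1.45). The test of genotype by age, fitted on 8 libraries with stage as a term, called 0 of the 6 genes, against 0.00472% (1 gene) of all. Of these genes Actg2 had the smallest p, with an interaction of 1.55 (SE 0.39, limma adjusted p = 0.288, and 0.00530 before adjustment). Its adjusted p was 0.0700 to 0.488 over the 6 other settings and 0.212 to 0.997 with a library left out. Myl9 showed -1.38 (SE 0.57, limma adjusted p = 0.547, and 0.0463 before adjustment). In limma voom 326 genes were called for this interaction in place of 1, none of them among the 7. The spermatid list, which had 11 of its 12 genes at an unadjusted p under 0.05 and 0 called in this test, showed a median interaction of 2.0.

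Across the 8 libraries 4 of the genes followed Acta2 closely, and Actg2 and the sparsely counted Tagln did not. On log2(FPKM + 1), Pearson r between Acta2 and Myh11 was 0.97 (Spearman rho 0.98), and it was 0.92 with Cnn1, 0.89 with Myl9, 0.83 with Des and 0.37 with Tagln. Between Acta2 and Actg2 it was -0.03 (rho 0.00), and over the 6 others Actg2 did not exceed 0.27. Acta2 was close to the means of the other contractile list (r = 0.92, rho = 0.88), the matrix list (r = 0.90, rho = 0.83) and the vascular smooth muscle and pericyte list (r = 0.86, rho = 0.90). With the pachytene list it went in the opposite direction (r = -0.83, rho = -0.81), and it was far from the spermatid list (r = -0.16, rho = 0.00). Actg2 was close to the mean of the spermatid list (r = 0.98, rho = 1.00) and far from that of the matrix list (r = -0.13, rho = -0.26). These values describe 8 points that share library, depth and cell mixture, and stage and age order them.

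**Figure D4:**
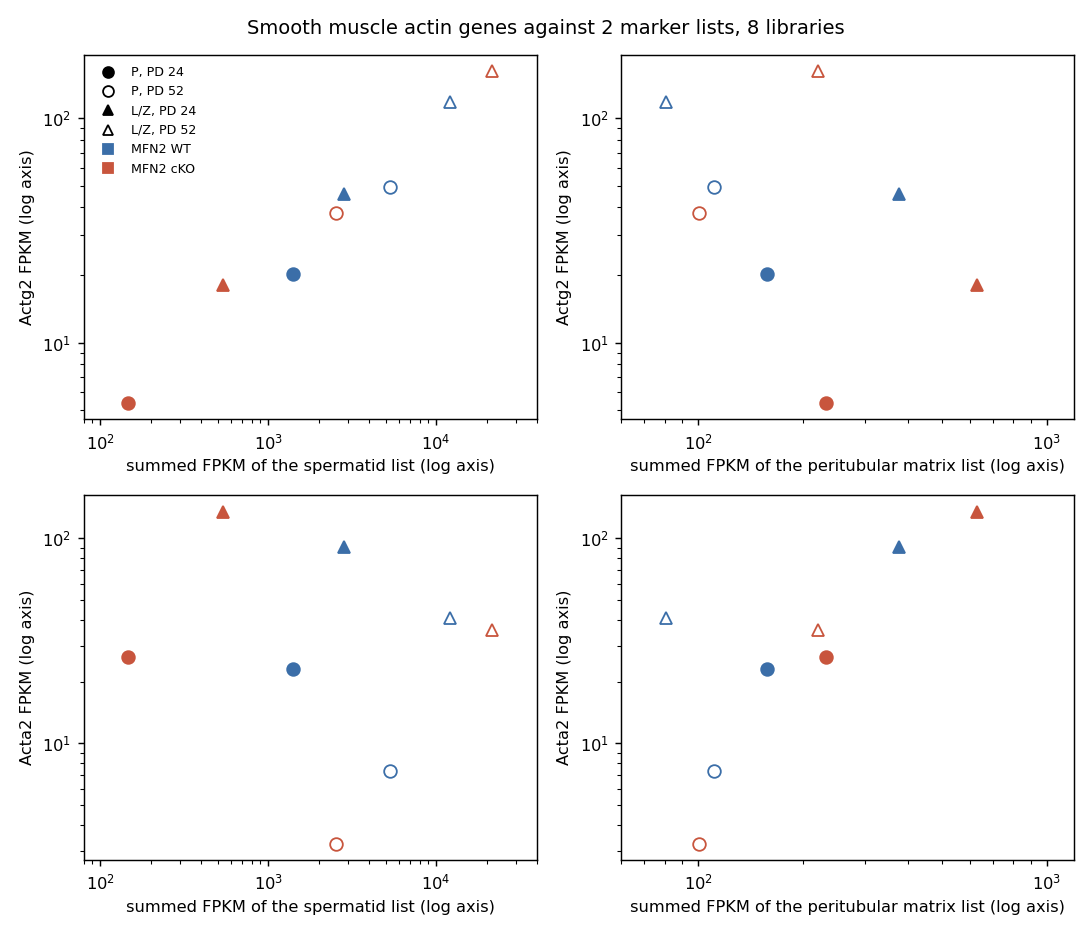
FPKM of Actg2 (top) and Acta2 (bottom) against the summed FPKM of the spermatid list (left) and of the peritubular matrix list (right), all on log axes, with 1 point per library, circles for P, triangles for L/Z, filled for PD 24, open for PD 52, blue for MFN2 WT and red for MFN2 cKO. Actg2 rises from 5.39 to 162 together with the spermatid sum (147 to 21417), and Acta2 shows no such order with it.

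Genes most like the mean of the 7 were sought among 7489 protein-coding genes with a mean FPKM of at least 1 and a range of at least 1 log2 unit. The 8 with the highest Pearson r over the 8 libraries were Cyp26b1 (0.98), Ctgf (0.98), Lsm14a (0.97), Slc1a5 (0.97), Ltbp2 (0.97), Kctd15 (0.97), Tmem185a (0.96) and Atp2c1 (0.96). Cyp26b1, which degrades retinoic acid, lay at an FPKM of 1.25 to 4.48 in P and 10.2 to 29.4 in L/Z. Ctgf, a matricellular protein, lay at 1.35 to 3.63 in P and 8.87 to 22.5 in L/Z. By Spearman rho, 2 of these 8 stayed among the first 8. Sought for Acta2 and Actg2 separately, which was decided after their values were seen, the first genes were Mfap4, Col4a4 and Casq2 for Acta2 (r = 0.98 for each) and Rab3il1, Spata20 and Clip4 for Actg2 (r = 1.00 for each after rounding).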

How the data were processed

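Libraries were made with the NEBNext Ultra RNA kit and sequenced on an Illumina HiSeq. The deposited table holds FPKM values, which the authors normalized with Novomagic, for 8 libraries, with gene length and coordinates beside them. The submitters' processing notes name CASAVA 1.4, Bowtie 0.12.2 and the builds mm8 and mm9, while 98.3% of the 54409 gene IDs shared with GENCODE vM21 had its GRCm38 coordinates, which are used here. FPKM times gene length gave whole reads (within 0.01) for 100% of values, and these reads gave the depth (14340665 to 20379950) and exact 95% intervals.

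Each gene with an FPKM above 1 in at least 1 library was tested with limma 3.58.1 (R 4.3.3) on log2(FPKM + 1), with stage, genotype and age as terms (4 residual degrees of freedom) and Benjamini-Hochberg adjustment over 21175 genes. A fold on this scale understates the change of low genes. Pairs of libraries, with 1 library per group, got no test. In them a gene was counted past 2-fold if its FPKM was above 1 in either library. Fits and intervals were tested on simulated data. Stage differences are given as L/Z minus P.

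The 7 genes and all lists were chosen with earlier results of these data known. Named genes are the 7, all listed paralogs and regulators, the 4 genes of highest mean FPKM in each other list, the 8 most like the mean of the 7, and Mfn2, besides those said to be named after their values were seen, and 1 of them is not reported here.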

Additional observations from a re-analysis of the deposited data

How the results depend on the processing

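Each comparison of the 8 libraries was refitted with a pseudocount of 0.1, with no filter on FPKM, with a further median-of-ratios scaling (the same factor, 1.02, in every library) and with each library left out. After the data were seen, scaling to total reads, median-of-ratios scaling on genes above an FPKM of 1, and limma voom were added. The planned edgeR test was not run, since the deposited unit is FPKM, and limma voom on the recovered reads was added in its place. Over these settings 4 to 6 of the 6 genes were called by stage, 3 to 4 by age and 0 by genotype or interaction. The labels give no replicate numbers. With each pair of stage and age as a replicate block, the genotype fit called 0 of the 6 genes and 18 of all genes in place of 3 (8 with limma voom, 0 to 2 with a library left out), and the correlation within a genotype and age, between its P and its L/Z library, was estimated at -0.0759.

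With a pseudocount of 0.1, 2 genes in place of 1 differed at least 2-fold by genotype in P at PD 52, and 4 in place of 2 by age in L/Z MFN2 WT, as with scaling to total reads (4). Of 252 pair differences recomputed with settings other than the common factor, 196 stayed within their counting interval, 56 moved and 0 reversed. The genotype difference of Acta2 reversed to 0.028 with limma voom and ran from -0.35 to 0.19 with a library left out, and that of Myl9 from -0.24 to 0.56. Over all genes the share higher in L/Z was 13.6%, but 2.25% without L/Z MFN2 WT at PD 24, 2.59% without P MFN2 cKO at PD 24, 5.85% without P MFN2 cKO at PD 52, 6.37% without L/Z MFN2 cKO at PD 52 and 5.86% with no filter. By age the share was 20.5%, but 6.13% without P MFN2 cKO at PD 24 and 7.15% without L/Z MFN2 WT at PD 24. By age 65.7% of calls were higher at PD 52, but 47.5% with scaling to total reads, which moved the median of all genes to -0.15. The causes were not tested. With 1 library per group, depth gives counting error only, and Tagln (10 to 24 reads) and Des and Cnn1 in P are limited by it.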
